A study of Mus musculus with 577 samples.

Results

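Single oocytes of 1 mouse were prepared in a pair of ways, and the libraries of both preparations are compared here. The oocytes were those in the table of the paired experiment whose labels name the same-mouse comparison, namely 14 freshly dissociated oocytes and 8 oocytes cut from a tissue section, which are 22 of the 577 samples of the series. The mouse was 8 weeks old and in proestrus. One ovary was dissected in a culture medium containing dibutyryl-cAMP, and its oocytes were stripped of their follicle cells by pipetting, washed and amplified whole with Smart-seq2. The other ovary was snap-frozen, sectioned, fixed in alcohol and stained with cresyl violet, and its oocytes were isolated by laser capture microdissection (LCM), lysed with a denaturing detergent (the DRaqL procedure) and amplified by a Smart-seq2 protocol adapted to it. The dissociated oocytes are labelled Grown and came from fully grown follicles. The LCM oocytes are labelled Secondary-antral, a label that covers a wider range of follicle stages. For this mouse the paper shows representative images of antral follicles as the source of the LCM cells. An LCM library held only the part of an oocyte that lay in a section, whereas a dissociated library held a whole oocyte. Before sequencing the cells were pooled, and no pool held cells of both preparations. Preparation, ovary, the part of the oocyte sampled, amplification chemistry, library pool and the labelled range of follicle stages therefore moved together and cannot be told apart. Because 1 mouse gave 1 ovary to each preparation, each preparation counts as 1 sample, the cells are not replicates, and no test was made. All errors below are standard deviations (SD) over cells.

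A mouse oocyte grows for weeks inside its follicle while arrested in meiotic prophase, and during this time it transcribes and stores the mRNAs that carry it through maturation, fertilization and the first cleavage. It secretes GDF9 and BMP15, growth factors that act on the surrounding granulosa cells, and builds the zona pellucida, its glycoprotein coat. Transcription ceases in the fully grown oocyte, whose meiotic arrest is held by cAMP.

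The cDNA of both preparations was primed with oligo-dT and extended at its other end by template switching, in which the reverse transcriptase changes over to an oligonucleotide as its template and copies the complement of that oligonucleotide onto the first strand. The template-switching oligonucleotides are shown because they differ between the preparations, and the PCR primer because its sequence lies within both. The primers of both protocols had the same bases, and the one of the DRaqL protocol carried an amino group at its 5′ end. Capitals mark the bases that the DRaqL oligonucleotide has in addition, and both oligonucleotides end in further guanosines that are not printed.
Template-switching oligonucleotide, dissociated oocytes: aagcagtggtatcaacgcagagtac
Template-switching oligonucleotide, LCM oocytes: aagcagtggtatcaacgcagagtacGC
PCR primer, both protocols: aagcagtggtatcaacgcagagt

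The values are read counts of 22060 protein-coding genes. Reads were counted near the 3′ ends of transcripts, so a count scales with the number of cDNAs and little with their length. The dissociated libraries held 204271 to 545479 reads (median 252995.5) and the LCM libraries held 348530 to 1083011 reads (median 729295.5). Counts were scaled to a library total of 1000000 reads (RPM), and levels are given as RPM or as log2(RPM + 1). Genes with at least 1 read numbered 10340 to 12155 in the dissociated oocytes (median 10822.5, SD 577) and 10429 to 12612 in the LCM oocytes (median 10835, SD 874). At an equal 204271 reads per library the medians were 10418 and 9790. With at least 5 reads required, and no thinning, they were 6673.5 and 8897.5. In at least 50% of the cells of a preparation, 11018 genes were detected in dissociated and 11579 in LCM oocytes. The 10366 genes that both sets held were 94.1% of the first and 89.5% of the second.

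The labelled cell type was checked with Gdf9, the oocyte growth factor gene. Gdf9 lay between 3861 and 6953 RPM in the dissociated oocytes (median 5293) and between 1800 and 7842 RPM in the LCM oocytes (median 5839). The ranges overlapped, and the means were 12.39 ± 0.26 (SD, n = 14 cells) and 12.34 ± 0.66 (SD, n = 8 cells) on the log2(RPM + 1) scale, a difference of -0.05. Over the summed reads of each preparation Gdf9 stood at 5369 RPM (exact Poisson 95% interval 5300 to 5439) in dissociated and 5582 RPM (5521 to 5643) in LCM oocytes. These intervals cover counting error only, since the reads carried no molecular identifiers. In granulosa cells of the same mouse the mean Gdf9 level was 4.35 in 35 dissociated and 4.49 in 70 LCM cells. The paper describes some of the dissociated granulosa cells as having expression profiles mixed with those of oocytes. No such cell was removed here.

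Across the 16715 genes detected in at least one of these oocytes, the mean profiles of the preparations had a Pearson r of 0.921 and a Spearman rho of 0.906. The r is across genes, which are not independent of each other. Pairs of dissociated oocytes had an r of 0.879 to 0.937 (91 pairs, median 0.901), pairs of LCM oocytes 0.699 to 0.917 (28 pairs, median 0.833), and pairs across the preparations 0.666 to 0.885 (112 pairs, median 0.825). LCM oocytes thus resembled dissociated oocytes about as closely as they resembled one another. The oocyte named LCM 8 stood apart, with a mean r of 0.757 to the other LCM oocytes, and without it the LCM pairs ranged from 0.793 to 0.917. The SD over cells, taken as its median over 5048 genes with an average level of 5 or more, was 0.421 in the dissociated and 0.693 in the LCM oocytes (0.572 without LCM 8), and it was the larger in the LCM oocytes for 80.9% of these genes. In a principal component analysis of 11508 genes the first component held 28.3% of the variance and separated the preparations. Dissociated oocytes lay between -62.6 and -28.0 on it, and LCM oocytes between 28.8 (LCM 1) and 178 (LCM 8).

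Of 8363 genes whose 2 mean levels averaged at least 3, 785 (9.39%) differed by 2 or more on the log2 scale, a 4-fold difference. Of these, 429 (5.13%) were higher in the LCM oocytes and 356 (4.26%) in the dissociated oocytes, both as a share of the 8363. The median difference of all 8363 genes was -0.05, LCM minus dissociated throughout. For 311 genes (3.72%) every LCM oocyte was above every dissociated oocyte, and for 400 (4.78%) every LCM oocyte was below. Cells were pooled before sequencing, and the pools numbered 8, separate for each preparation, held 10 dissociated and 6 LCM oocytes. Within those, 419 of the 429 and 339 of the 356 genes were still past the 4-fold difference, where 7.96% and 6.06% of all genes were past it in these directions. Among the remaining 4 dissociated and 2 LCM oocytes, 156 (36.4%) and 115 (32.3%) were, against 2.69% and 6.07% of all genes. The 429 and 356 genes were chosen from means that include these same cells, so these counts are partly fixed by the choice. Without LCM 8, 365 of the 429 and 228 of the 356 remained past it.

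Filip1l, whose product interacts with filamin A, had the largest difference. It lay between 0 and 9.40 RPM in the dissociated oocytes, with a median of 0, and between 185 and 705 RPM in the LCM oocytes, with a median of 347. Every LCM oocyte was above every dissociated one, and the means were 0.72 ± 1.23 (SD, n = 14 cells) and 8.50 ± 0.78 (SD, n = 8 cells), a difference of 7.78. The summed reads gave 1.87 RPM (exact Poisson 95% interval 0.806 to 3.68) and 413 RPM (396 to 430). Granulosa cells showed the same contrast, with means of 1.28 in dissociated and 9.25 in LCM cells. LCM oocytes of the secondary to antral stages amplified by other chemistries had mean levels of 1.52 (DRaqL-SC3-seq, 30 oocytes) and 5.34 (SMART-Seq v4, 9 oocytes). Filip1l lies on the plus strand of chromosome 16 (GRCm38, 57353093 to 57573126) within the span of Cmss1 on the minus strand. Whether reads were counted by strand is not given in the sources used here, so the reads of this gene pair cannot be told apart. Cmss1, examined after its values were seen, lay between 63.9 and 152 RPM in dissociated and between 113 and 1418 RPM in LCM oocytes, a difference of 2.30.

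The genes with the next largest positive differences were of varied function. Kpna1, an importin alpha that carries cargo into the nucleus, was between 0 and 8.46 RPM in dissociated and between 20.8 and 178 RPM in LCM oocytes, a difference of 5.68. Ubtf, an RNA polymerase I transcription factor, differed by 5.15, and Mybbp1a, a nucleolar protein, by 5.03. Mdn1, which matures the large ribosomal subunit, differed by 4.08, and its ranges of 0 to 9.01 and 2.87 to 169 RPM overlapped. Structural proteins of other cell types were also among the 15 genes with the largest positive differences. Titin (Ttn), the giant protein of the muscle sarcomere, lay between 16.03 and 58.5 RPM in dissociated and between 176 and 5938 RPM in LCM oocytes, a difference of 4.63. The intermediate filament genes Nes and Nefh differed by 4.55 and 4.34. The synaptic protein gene Il1rapl1 differed by 4.72, the dynein-2 subunit gene Wdr60 by 4.21, and Gigyf2, whose product represses translation, by 4.06. Rimbp3 (4.84), Zfp707 (4.71) and Erdr1 (4.36) were also among these genes. These 15 genes were chosen for the size of their difference, and the ranges of the preparations did not overlap for 13 of them, against 3.72% of all genes.

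Ccl2, a chemokine that attracts monocytes, had the largest difference in the other direction. It lay between 66.0 and 463 RPM in the dissociated oocytes, with a median of 246, and between 0 and 63.0 RPM in the LCM oocytes, with a median of 0.47. No LCM oocyte reached the lowest dissociated oocyte. The means were 7.83 ± 0.78 (SD, n = 14 cells) and 1.88 ± 2.62 (SD, n = 8 cells), a difference of -5.95, and the summed reads gave 240 RPM (exact Poisson 95% interval 225 to 255) and 8.30 RPM (6.12 to 11.01). Of the 48 Ccl2 reads in LCM oocytes, 20 came from LCM 1 and 24 from LCM 7, the oocytes outside the LCM pool numbered 8, and 4 LCM oocytes had none. Granulosa cells held almost no Ccl2 in either preparation, at means of 0.53 and 0.39. In the LCM oocytes of secondary to antral stages amplified otherwise, the mean was 1.27 with DRaqL-SC3-seq and 3.61 with SMART-Seq v4. Ccl2 lies on chromosome 11 (GRCm38, 82035571 to 82037453, plus strand).

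The other genes with large negative differences also had varied roles. Gnrh1, the precursor of gonadotropin-releasing hormone, was even among dissociated oocytes, at 331 to 533 RPM, and spread from 0 to 227 RPM in LCM oocytes, a difference of -4.41. Rgn (regucalcin) lay at 80.2 to 273 RPM and at 0 to 88.9 RPM, ranges that overlapped, and differed by -4.67. Sdhd, a membrane subunit of succinate dehydrogenase, lay at 217 to 494 RPM and at 1.74 to 63.1 RPM, so that no LCM oocyte reached the dissociated range, and differed by -4.35. Enzymes of lipid and xenobiotic metabolism were Ppap2a (-4.41), Aadac (-4.21), Lpcat2 (-4.08) and Ugt2b38 (-4.05). The ephrin receptor Epha3 (-4.30), the lysosomal cobalamin transport gene Lmbrd1 (-4.03), the axonemal tektin Tekt4 (-3.97), the secreted lubricin Prg4 (-3.96), the olfactory receptor Olfr288 (-3.96) and the transcripts A630095E13Rik (-4.88) and 1700023E05Rik (-4.14) completed the 15. Ranges did not overlap for 10 of these genes, which were chosen for their difference, against 4.78% of all genes. LCM 8 had 0 reads of 13 of these 15 genes. The median of their mean levels was 6.84 in the dissociated oocytes, 4.05 in LCM 1 and LCM 7, and 1.75 in the LCM oocytes of pool 8. Of all 31 genes chosen so far by their size of difference or as markers, 16 overlap another annotated gene and 9 overlap a protein-coding one, and their reads cannot be assigned with certainty.

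**Figure D1:**
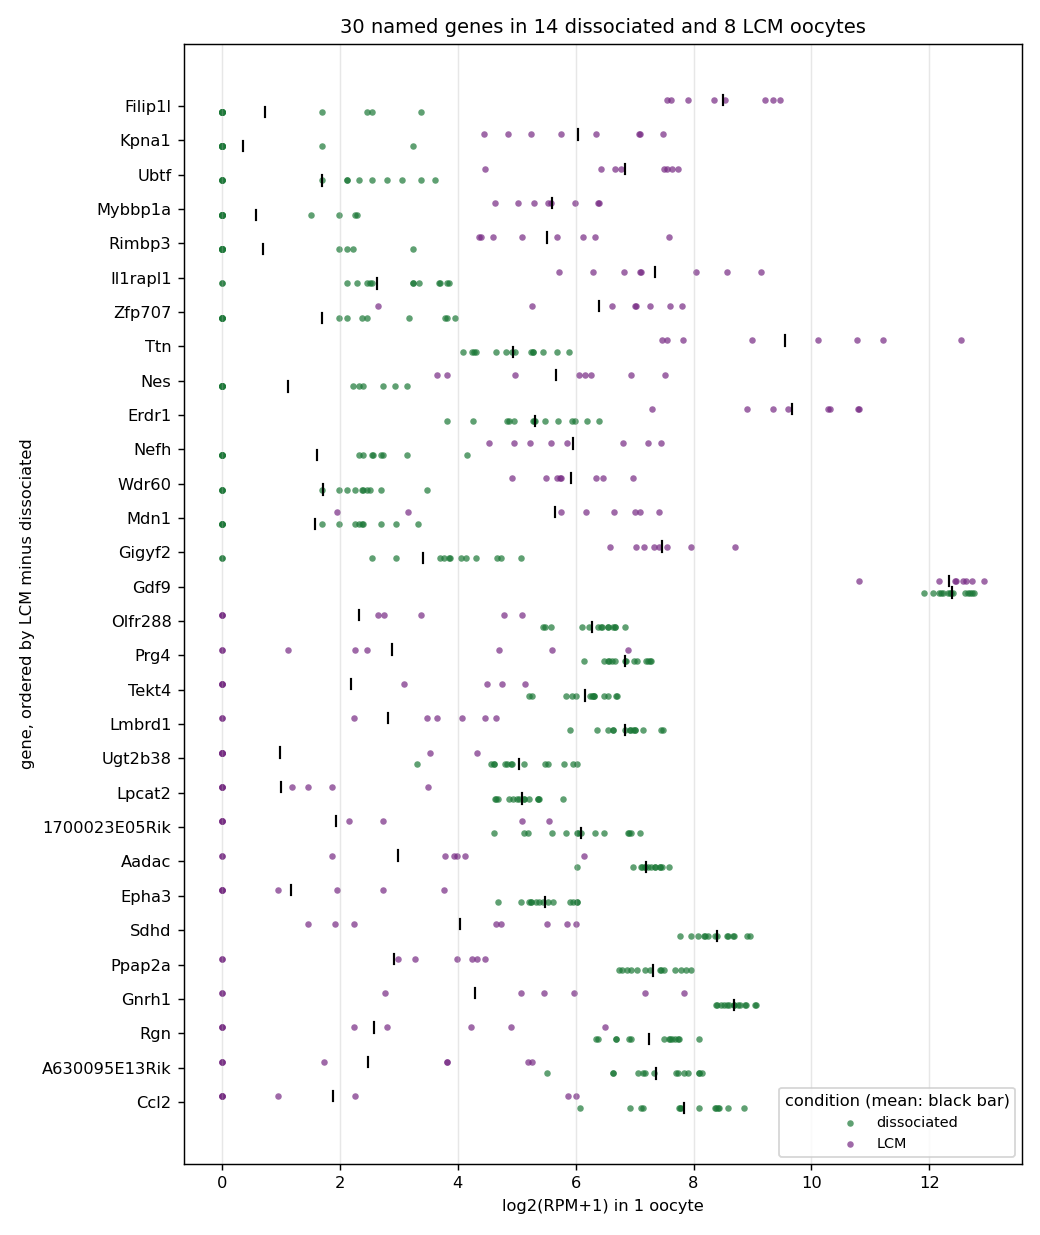
Level of each of 30 named genes in each oocyte, as log2(RPM + 1) on the horizontal axis, with dissociated oocytes (14 points a gene) and LCM oocytes (8 points a gene) in separate colours and the mean of each preparation marked. The LCM points lie wholly above the dissociated points for Filip1l and wholly below them for Ccl2, and those of Gdf9 overlap; LCM points spread from 0 upward for most genes that were higher in dissociated oocytes.

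Granulosa cells of the same mouse were prepared in the same pair of ways, 35 dissociated and 70 by LCM, and those with profiles mixed with oocytes were kept. Over the same 8363 genes, 672 (8.04%) were 4-fold or more higher in LCM granulosa cells and 946 (11.3%) in dissociated granulosa cells. Of the 429 genes higher in LCM oocytes, 108 (25.2%) were past the same threshold in the same direction in granulosa cells, 4 in the opposite direction, and 209 (48.7%) differed by less than 1. Of the 356 higher in dissociated oocytes, 89 (25.0%) shared the direction, 1 was opposite, and 209 (58.7%) differed by less than 1, against 53.9% of all genes. The genes with the largest differences divided unequally. Among the 15 higher in LCM oocytes, 9 were at least 4-fold higher in LCM granulosa cells too, among them Filip1l, Kpna1 (3.71 against 8.99), Il1rapl1 (1.31 against 8.27), Rimbp3 (0.72 against 5.28) and Erdr1 (7.60 against 11.90). Ubtf (5.38 against 4.46) and Ttn (0.44 against 1.30) were not. Among the 15 higher in dissociated oocytes, Sdhd alone was past the threshold in granulosa cells (7.01 against 2.61), and 13 differed by less than 1. All of these 13 but Lmbrd1 had mean levels under 2 in dissociated granulosa cells, which leaves no room for a 4-fold difference in that direction.

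**Figure D2:**
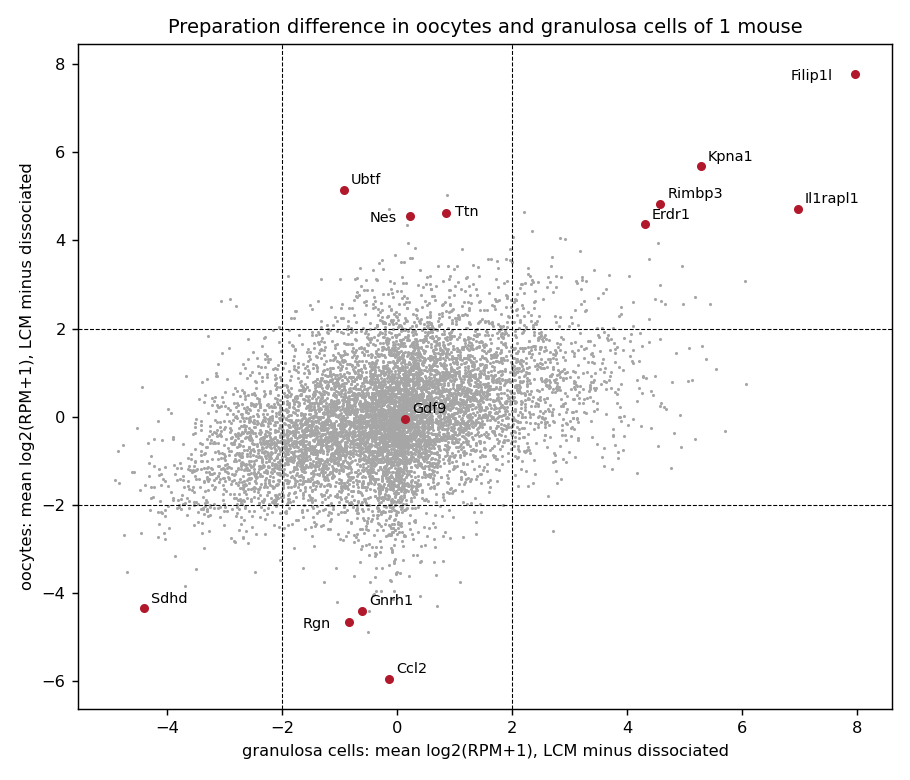
Difference of mean log2(RPM + 1), LCM minus dissociated, in oocytes (vertical axis) against granulosa cells of the same mouse (horizontal axis) for 8363 genes, with dashed lines at differences of 2 in either direction. Filip1l, Kpna1, Il1rapl1, Rimbp3 and Erdr1 lie high in both cell types, Sdhd low in both, and Ubtf, Nes, Ttn, Gnrh1, Rgn and Ccl2 lie near 0 on the granulosa axis.

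Growth factor, zona pellucida and early transcription factor genes of the oocyte differed by less than 1. Counts past 4-fold in the lists that follow stand against 5.13% of all genes higher in LCM and 4.26% higher in dissociated oocytes. The growth factor genes Gdf9, Bmp15 and Fgf8 had a median difference of -0.48 (0.003 without LCM 8) and summed to a median of 8696 RPM in dissociated and 8384 RPM in LCM oocytes. The 3 zona pellucida genes had a median difference of 0.30 and summed to 5217 and 6521 RPM. Of 5 early oocyte transcription factor genes that passed the filter on low levels, none was past the 4-fold difference, with a median of -0.14, which became 0.45 when the reads of each preparation were summed. In the subcortical maternal complex, a protein assembly under the oocyte membrane that is required for cleavage, 7 of 8 genes had a difference above 0 and none was past 4-fold. Nlrp5 had a median of 612 RPM in dissociated and 1890 RPM in LCM oocytes, and Khdc3 of 1635 and 3539 RPM. Chromatin genes with maternal effects lay on both sides, 8 of 11 above 0 and 3 below, among them Dnmt3l (-1.18) and Dppa3 (-0.89). Past 4-fold was 1 of the 11, Dnmt1, the maintenance DNA methyltransferase, against 5.13% of all genes. Dnmt1 lay at 995 to 2820 RPM in dissociated and at 4938 to 10106 RPM in LCM oocytes, ranges that did not overlap, and differed by 2.08.

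The multigene families expressed in oocytes stood on the other side. All 11 of the genes measured above the filter, members of the Obox homeobox, Oosp and Oog families and Bcl2l10, had a difference below 0, with a median of -1.46, and 4 were past 4-fold, against 4.26% of all genes. Obox1 lay at 1829 to 4130 RPM in dissociated and at 211 to 1261 RPM in LCM oocytes and differed by -2.05. Obox2 differed by -2.14, Oosp2 by -2.09 and Oosp3 by -2.12. The families summed to a median of 20196 RPM in dissociated and 8677 RPM in LCM oocytes. Some genes within these families are close copies of each other, so the division of reads among those members is uncertain. Obox1, Obox2, Obox5 and Oosp1 also belong to the growth genes described below, so the list is not separate from them. The median over the list was -1.16 without LCM 8.

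Among 14 genes of meiotic arrest and maturation none was past 4-fold, with a median of -0.42. The cyclin B gene Ccnb1 differed by -1.79, its kinase Cdk1 by -1.61 and the spindle kinase Aurka by -1.59. Among 6 genes of meiotic prophase, Tex12 of the synaptonemal complex was lower in LCM oocytes, at 5.10 to 59.9 RPM against 65.3 to 164 RPM, a difference of -2.68, while Sycp2 of the same structure differed by 1.80. Among 20 genes of mRNA storage and decay, Ddx6, an RNA helicase of repressed messenger particles, was the 1 gene past 4-fold, a share close to the 5.13% of all genes. Ddx6 lay at 4.47 to 38.99 RPM in dissociated and at 47.3 to 260 RPM in LCM oocytes, a difference of 3.39. Btg4, an adaptor for deadenylation of maternal mRNA, differed by -1.38, and the median of this list was 0.17.

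The isolation of the dissociated oocytes exposed them to pipetting and to dibutyryl-cAMP, and genes known to respond to cAMP or to stress were therefore listed. Of 10 cAMP response genes only 3 passed the filter, none was past 4-fold, and their median was 0.83. Of 22 immediate early genes 4 passed, with a median difference of -0.34. Of these, Mcl1, an inhibitor of apoptosis, was past 4-fold with a difference of 3.12. Egr1 differed by 0.12, Btg2 by -0.81 and Dusp1 by -0.97. Of 13 chemokine and inflammation genes 2 passed, Ccl2 and Nfkbia, and Nfkbia differed by 1.10. Another 10 had 0 reads in all 22 oocytes, among them Tnf, Il6, Il1b and Cxcl1, which allows up to 0.700 RPM in the summed dissociated and 0.519 RPM in the summed LCM oocytes (3 reads each). The remaining gene of the list, Ccl7, had 3 reads, all in dissociated oocytes. Of 12 heat shock genes that passed the filter, 9 had a difference above 0 and 3 below, Dnaja1 (-1.10), Hspe1 (-0.41) and Hsf1 (-0.14). Their summed level lay at 3069 to 4854 RPM in the dissociated and at 7001 to 14232 RPM in the LCM oocytes, which did not overlap, and 2 of 12 genes were past 4-fold, against 5.13% of all genes. The chaperone genes Hsph1 and Hsp90ab1 differed by 3.13 and 2.54, with medians of 126 against 1228 RPM and 203 against 1222 RPM. In granulosa cells the median difference of the same list had the opposite sign, -1.04 against 1.05 in oocytes.

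Cytoskeletal genes had a median difference of 0.53, and 3 of 14 were past 4-fold, against 5.13% of all genes, namely Filip1l, already chosen for its difference, the tropomyosin gene Tpm3 (2.90) and beta-actin, Actb (2.08). Actb lay at 51.4 to 198 RPM in dissociated and at 250 to 933 RPM in LCM oocytes, without overlap. Of 67 histone genes 8 passed the filter, and of these 4 linker histone H1 genes were past 4-fold, against 5.13% of all genes, Hist1h1c (4.03), Hist1h1e (3.08), Hist1h1d (3.05) and Hist1h1a (2.55). The median over the histone genes was 1.99, and 1.42 without LCM 8.

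Of 92 nuclear genes of the respiratory chain that passed the filter, 84 were below 0, 27 had every LCM oocyte below every dissociated one (4.78% of all genes had this), and the median difference was -1.003 (-0.88 without LCM 8). Past 4-fold were 9, against 4.26% of all genes, namely Sdhd and Sdhc of succinate dehydrogenase, Cox5a of cytochrome c oxidase and the complex I genes Ndufa1, Ndufa4, Ndufa12, Ndufab1, Ndufb4 and Ndufb8. Cox5a was even among dissociated oocytes, at 852 to 1136 RPM, lay at 19.2 to 384 RPM in LCM oocytes, and differed by -2.45. The summed level had medians of 20251 and 10977 RPM. The same genes had a median difference of -2.35 in granulosa cells, and their median transcript was 1232 bases. Ribosomal protein genes, whose median transcript was 1004 bases, had a median difference of 0.06 over 90 genes in oocytes and -0.95 in granulosa cells, with none past 4-fold in oocytes. The 12 genes encoded by the mitochondrial genome that passed the filter had a median of -0.45. Of 11 glycolysis and pyruvate genes, Mpc1, a subunit of the mitochondrial pyruvate carrier, was past 4-fold at -2.46, with a list median of -0.19.

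**Figure D3:**
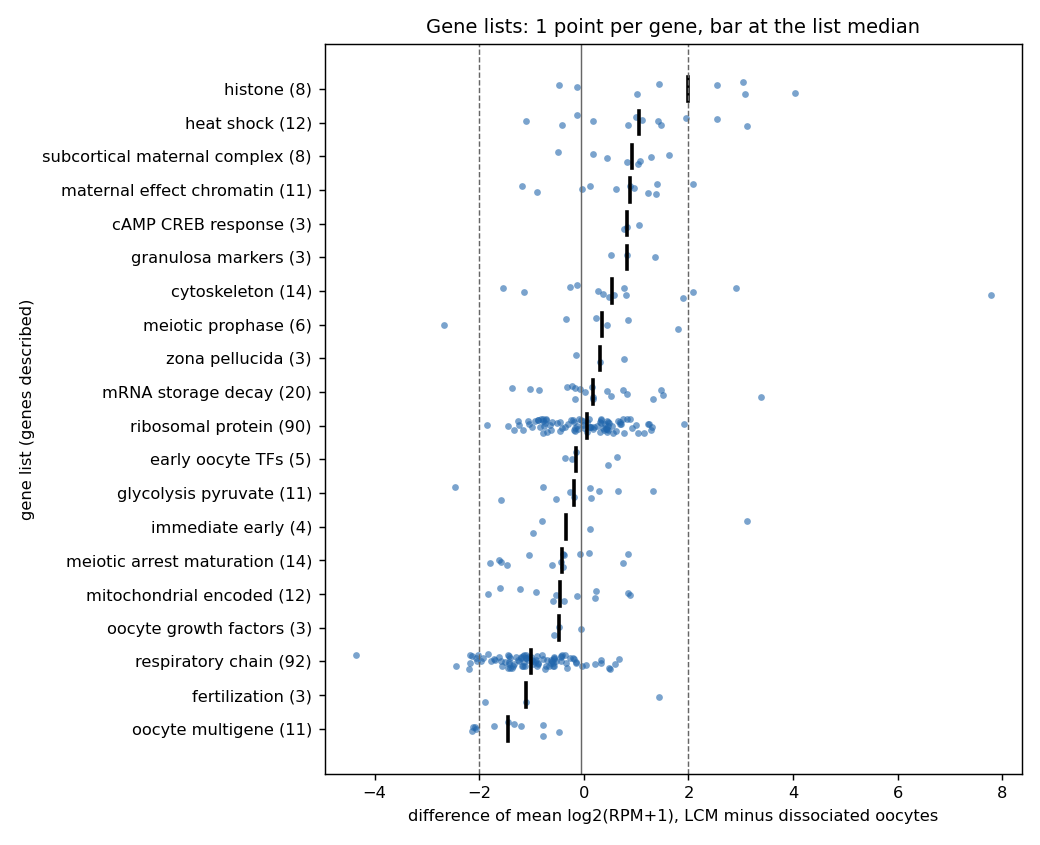
Difference of mean log2(RPM + 1), LCM minus dissociated, for each gene that passed the filter in each gene list, 1 point a gene, with the list median marked, a solid vertical line at the median of all 8363 genes (-0.05) and dashed lines at differences of 2. The oocyte multigene families lie wholly below 0 and most respiratory chain genes do, while 7 of 8 genes of the subcortical maternal complex and 9 of 12 of the heat shock list lie above it.

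Markers of neighbouring cells were also read in the oocytes. Of 17 granulosa markers 3 passed the filter with a median difference of 0.82, and the list summed to 480 to 736 RPM in dissociated and 622 to 1410 RPM in LCM oocytes, against medians of 21324 and 7685 RPM in dissociated and LCM granulosa cells. Most of the oocyte sum was Serpine2, with medians of 447 and 606 RPM. The defining granulosa gene Amh had 0 reads in both sets, below the same limits of 0.700 and 0.519 RPM, and Foxl2 had medians of 0 and 2.73 RPM. No marker of cumulus expansion, theca or blood passed the filter. The stroma and smooth muscle list summed to 37.4 to 93.0 RPM in dissociated and 213 to 448 RPM in LCM oocytes, without overlap. Its main gene, the smooth muscle myosin gene Myh11, lay at 37.4 to 93.0 RPM in dissociated and at 201 to 445 RPM in LCM oocytes, a difference of 2.33, whereas the smooth muscle gene Tagln had 0 reads in all oocytes and the collagen genes Col1a1, Col1a2 and Col3a1 had medians of 0 RPM in both sets. The part of other cells in the differences above was not tested.

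How far each oocyte had grown was described with genes taken from other oocytes of the series. From the DRaqL-SC3-seq oocytes, 200 genes with the largest increase from the primary to the secondary to antral stages and 200 with the largest decrease were chosen, and a growth score was the mean log2 level of the first set minus that of the second. Primary oocytes of that method scored -4.24 to -1.74 and its secondary to antral oocytes -0.71 to 5.99 (median 4.47). The genes were chosen on these same cells, so the separation of their stages is fixed by the choice. The dissociated oocytes scored 5.52 to 5.96 (median 5.73, SD 0.15). LCM oocytes of the same mouse scored from 1.24 (LCM 8) to 5.42 (LCM 1), with a median of 4.37 and an SD of 1.28, and the next lowest after LCM 8 scored 3.46. Every LCM oocyte was below every dissociated oocyte, and all lay within the range of the DRaqL-SC3-seq secondary to antral oocytes. LCM oocytes of the same stages amplified with SMART-Seq v4, which were not used to choose the genes, scored 4.12 to 5.34 (median 4.63, 9 oocytes). The primary oocytes of SMART-Seq v4 scored -4.28 to -3.41 (6 oocytes).

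The 200 genes that increased during growth had a median difference of -0.78 between the preparations, with 157 of 200 lower in LCM oocytes, and the 200 that decreased had a median of 0.93, with 156 higher. Past 4-fold in the direction of a less grown oocyte were 20 of 199 increasing and 16 of 59 decreasing genes that passed the filter. These stand against 4.26% of all genes higher in dissociated and 5.13% higher in LCM oocytes. In the other direction there were 4 and 1. Only 59 of the 200 decreasing genes passed, and a gene low in dissociated oocytes passed more readily when it was high in LCM oocytes. The share of 16 in 59 is therefore partly fixed by the filter, whereas the medians above cover all 200 genes of each set. Over the 8 LCM oocytes, which share an ovary and mostly a pool, the score had a Pearson r of 0.80 with Sdhd (Spearman rho 0.90), 0.78 with Gnrh1 (0.75), 0.55 with Ccl2 (0.47), -0.51 with Filip1l (-0.29) and 0.91 with Gdf9 (0.57), given as a description over 8 cells. Without LCM 8 the Pearson r was 0.82 with Sdhd, 0.74 with Gnrh1, 0.67 with Ccl2, -0.29 with Filip1l and 0.43 with Gdf9. The relation with Gdf9 and that with Filip1l thus rested largely on LCM 8. LCM 1 and LCM 7, outside the LCM pool numbered 8, scored 5.42 and 4.81. The LCM oocytes of that pool scored 1.24 to 4.85. The part of the pool in these correlations was not tested. The labels span more stages in the LCM than in the dissociated set, and the part of growth stage in any gene's difference cannot be told apart from that of the preparation.

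**Figure D4:**
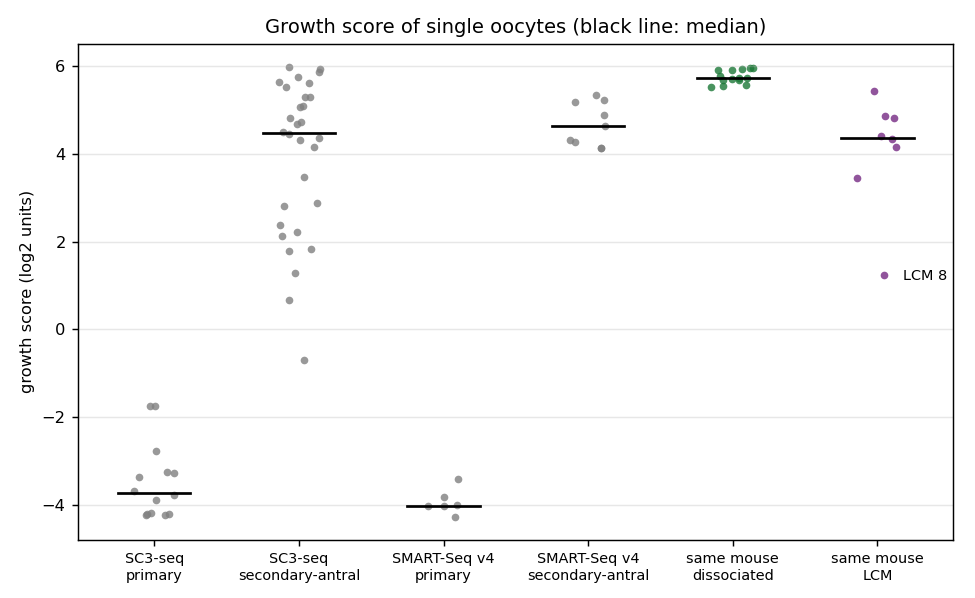
Growth score of each oocyte, the mean log2(RPM + 1) of 200 genes that increased minus that of 200 genes that decreased with growth in DRaqL-SC3-seq oocytes, for the dissociated and LCM oocytes of the mouse and the primary and secondary to antral oocytes of 2 other LCM methods. The dissociated oocytes sit together between 5.52 and 5.96, and the LCM oocytes spread from 1.24 to 5.42.

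The differences also ran with transcript length. In 5 bins of equal size ordered by the longest annotated transcript, with median lengths of 1338, 2482, 3471, 4600 and 7231 bases, the median difference in oocytes was -0.59, -0.28, -0.03, 0.12 and 0.62. From the shortest to the longest bin the share of genes 4-fold higher in LCM oocytes went from 1.68% to 10.7%, and the share 4-fold higher in dissociated oocytes from 8.51% to 1.38%. Granulosa cells had bin medians of -1.22, -0.44, -0.08, 0.22 and 0.94. Across 8345 genes, which are not independent, the Spearman correlation of length and difference was 0.35 in oocytes and 0.53 in granulosa cells. The median transcript was 4832 bases for the 429 genes higher in LCM oocytes, 2300 bases for the 356 higher in dissociated oocytes and 3471 bases for all. The median transcript was 1232 bases in the respiratory chain list and 1512 bases in the multigene list. It was 1147 bases in the histone list and 1004 bases in the ribosomal protein list. The part of length in each gene's difference was not tested.

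**Figure D5:**
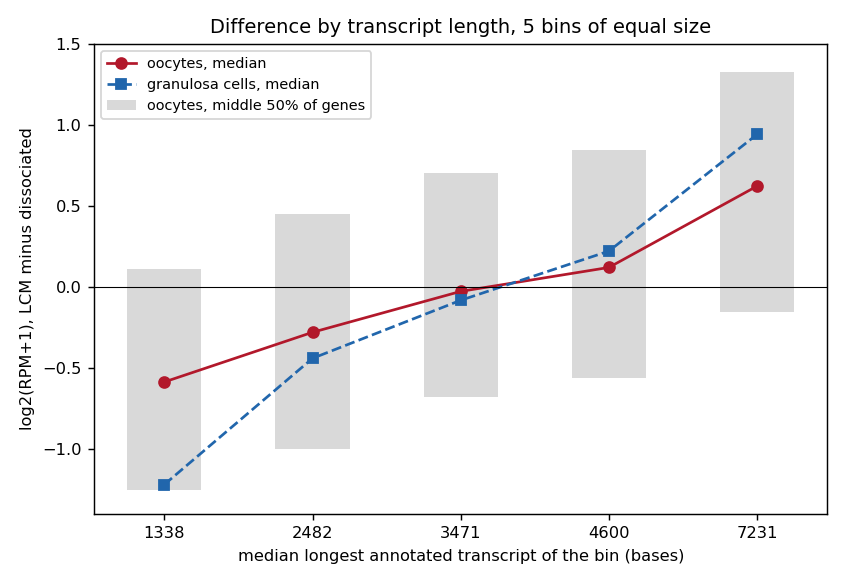
Median difference of mean log2(RPM + 1), LCM minus dissociated, in 5 equal bins of 8345 genes ordered by the longest annotated transcript, for oocytes (circles, solid line) and granulosa cells (squares, dashed line), with grey bars for the middle 50% of genes in oocytes. The medians go from -0.59 to 0.62 in oocytes and from -1.22 to 0.94 in granulosa cells from the shortest to the longest bin.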

How the data were processed

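Single-cell cDNAs were sequenced from the 3′ side. According to the methods and the submitters' processing notes, the authors trimmed reads with fastp 0.20.0 and cutadapt 1.16, aligned them to GRCm38 with HISAT2 2.1.0 and counted them with HTSeq 0.10.0 within 10 kb of transcript 3′ ends. The deposited values are raw read counts per gene, 1 column per cell, and the study kept cells with at least 100000 reads and 10000 genes. Whether counting used strand is not given in the sources used here.

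Groups were taken from the sample labels. Numbers such as LCM 8 follow accession order and only name a cell. Counts were scaled to RPM over the 22060 protein-coding genes and compared as mean log2(RPM + 1), a scale that understates differences of low genes. A gene was described where its 2 group means averaged at least 3, and called where they differed by at least 2. With 1 mouse and 1 ovary per preparation no test was made. Poisson intervals (95%) on summed counts cover counting error only. The text names the given markers Ccl2, Filip1l and Gdf9, the 15 largest differences each way, and members of 26 gene lists, 22 by symbol and 4 by name pattern. The values of 1 of these genes are not reported here, and the counts include it. Transcript lengths came from the GENCODE annotation of GRCm38. TMM factors came from edgeR 4.0.16 in R 4.3.3. The calculation was tested on simulated counts with known differences. Oocytes, markers and lists were chosen with earlier results of these data known, and the length bins, the comparison of pools for named genes and the omission of each LCM oocyte were chosen after values were seen. Other scalings, pseudocounts, filters, thinning to 204271 reads and single pools were tried as alternatives. Granulosa cells and oocytes of other methods served only for comparison.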

Additional observations from a re-analysis of the deposited data

Results flagged for a closer look

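Among the 8 LCM oocytes, 62 measures were examined for 1 cell far from the others, and 11 had one. Chance flags about 1 in 20 groups where the values are independent and normally distributed. Some of these measures overlap, as Gdf9 is one of the growth factors, and some are sums of very few reads. The 11 therefore cannot be set against that rate, and no excess over chance is claimed. LCM 8 was the far cell in 7 of the 11. Its growth score was 1.24, its Gdf9 level 10.81 on the log2 scale, and its summed levels were 2681 RPM for the growth factors, 2008 RPM for the oocyte multigene families and 6196 RPM for the respiratory chain, all the lowest of the 8 cells. For the meiotic prophase genes (2072 RPM) and the cAMP response genes (820 RPM) it was the highest. LCM 3 was far above the others in the immediate early genes (309 RPM), LCM 6 in the cumulus expansion markers (2.53 RPM) and LCM 2 in the theca markers (41.9 RPM). LCM 7 was far below the others in Ubtf, at 4.46 on the log2 scale. The causes were not tested.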

How the results depend on the processing

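No paired analysis was possible because the replicate numbers only name cells and no library of one preparation corresponds to a library of the other. The main summaries were recomputed under the alternatives. Of these values, 161 stayed within the spread over cells or within 1.5 times of the main count, and 24 moved further. Leaving out 1 LCM oocyte gave 102 of the 161 and 2 of the 24. Some values could not move, such as the detectable genes of dissociated oocytes when an LCM oocyte was left out. Genes 4-fold higher in LCM oocytes numbered 429, and 130 with a pseudocount of 10, 155 at an average level of 5 or more, 708 with no filter and 699 in the pools numbered 8. Those higher in dissociated oocytes numbered 356, and 609 with a pseudocount of 0.1, 91 with a pseudocount of 10, 168 at an average level of 5 or more and 154 from summed counts, where 75.3% of the genes past the threshold were higher in LCM oocytes against 54.6% from the means. Members of the gene lists past 4-fold numbered 13 and 16. With a pseudocount of 10 they were 7 and 9, without a filter 20 were higher in LCM oocytes, and from summed counts 5 were higher in dissociated oocytes. The 200 genes decreasing with growth had a median of 1.37 with a pseudocount of 0.1, 0.42 with a pseudocount of 10 and 1.41 from summed counts, and 50 increasing genes had one of -1.24. The separation on the first principal component was 4.31 pooled SD, and 5.57 in the pools numbered 8. Profile correlations were 0.752 (Pearson) and 0.749 (Spearman) over the 8363 genes. Detectable genes had medians of 9790 in thinned LCM oocytes, and 6673.5 and 8897.5 with at least 5 reads. TMM scaling gave 429 and 358 genes and the same median difference of -0.05. The table holds no other rows than these genes, so a total over the whole table gives the main values.

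With each LCM oocyte left out in turn, genes higher in LCM oocytes ranged from 402 to 506, those higher in dissociated oocytes from 250 to 437, list members higher in dissociated oocytes from 8 to 20 and the separation from 3.98 to 6.04. The value of 8 and that of 6.04 came without LCM 8. Of 465 differences of named genes under the alternatives, 463 kept their sign, and the 2 exceptions were Gdf9, at 0.06 from summed counts and 0.17 without LCM 8. All of these genes but Gdf9 were among the largest differences in the same cells, so their kept signs were largely fixed by the choice. Of 368 list medians 353 kept their sign. The 15 others were of lists with a median within 0.5 of 0 in the main comparison, among them the early transcription factors (0.45 from summed counts against -0.14), the immediate early genes (0.33 without a filter against -0.34), endothelium (-0.74 after thinning against 0.28) and the growth factors (0.003 without LCM 8 against -0.48), and the rest were of the glycolysis and ribosomal protein lists or of these lists under other alternatives. The deeper LCM libraries resolve low genes further than the dissociated ones, where 1 read is worth more RPM.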
